A study of Mus musculus with 16 samples.

Results

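The genes described here code for the enzymes by which colonic epithelium makes nitric oxide, hydrogen peroxide and superoxide. They are the inducible nitric oxide synthase Nos2, the dual oxidases Duox2 and Duox1 with their maturation factors Duoxa2 and Duoxa1, and the Nox1 oxidase with its organiser Noxo1, its activator Noxa1 and its membrane partner Cyba. They were taken by symbol from the probe sets that name 1 gene, and all 9 had exactly 1 such probe set, among 19938 genes measured. Expression was measured in isolated colonic epithelial cells of C57BL/6 mice on 16 arrays, 2 for each of 8 groups, and each array held RNA pooled from 3 mice.

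The groups combined 3 factors. The dam was Pigr+/- or Pigr-/-, and with it the pups received or lacked secretory IgA (SIgA) in milk, called passive SIgA. The offspring was Pigr+/- or Pigr-/-, and with it the mouse could or could not carry its own IgA into the gut lumen, called active SIgA. The mice, 70 days old, were untreated or drank 2% dextran sulfate sodium (DSS), a polymer that injures the colonic epithelium, for 8 days. The 4 SIgA groups are thus Pigr+/- offspring of Pigr+/- dams (passive and active SIgA), Pigr-/- offspring of Pigr+/- dams (passive only), Pigr+/- offspring of Pigr-/- dams (active only) and Pigr-/- offspring of Pigr-/- dams (neither). No group was wild type for Pigr, and the labels name no tissue-limited deletion. Passive SIgA goes with the dam, so that it and other differences between dams cannot be told apart. The series asks how early and lifelong SIgA exposure shape epithelial gene expression, at rest and in DSS colitis.

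Inducible nitric oxide synthase turns arginine into nitric oxide and is controlled mainly through transcription, which microbial products and cytokines switch on. Dual oxidases sit in the apical membrane, leave the endoplasmic reticulum only with their maturation factor and release hydrogen peroxide, while the Nox1 complex makes superoxide after its organiser and activator subunits join the membrane part. In the colon both oxidase systems are known for keeping microbes away from the epithelial surface.

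Duox2 and Duoxa2 lie head to head, and both of their promoter windows lie between their start sites in the RefSeq promoter table. The longest Duox2 model begins farther upstream, so that the Duox2 window lies inside that model and the Duoxa2 window overlaps it. On GRCm38.p6 the 4 dual oxidase genes span 68727 bases of chromosome 2. Duox2 runs from 122279246 to 122298740 on the minus strand, Duoxa2 from 122298900 to 122302885 on the plus strand, Duoxa1 from 122303540 to 122313763 on the minus strand and Duox1 from 122313010 to 122347972 on the plus strand. The start sites of Duox2 and Duoxa2 in the RefSeq promoter table are 673 bases apart, and those of Duoxa1 and Duox1 are 1942 bases apart. The 250 bases before each start site are shown for Duox2 and Duoxa2, the pair of this locus that rose with DSS. They are from RefSeq on GRCm38.p6, at chr2:122298228-122298477 (minus strand) and chr2:122298650-122298899 (plus strand), each written 5′ to 3′ along its gene, and the capitals mark a TATAAA.
Duox2: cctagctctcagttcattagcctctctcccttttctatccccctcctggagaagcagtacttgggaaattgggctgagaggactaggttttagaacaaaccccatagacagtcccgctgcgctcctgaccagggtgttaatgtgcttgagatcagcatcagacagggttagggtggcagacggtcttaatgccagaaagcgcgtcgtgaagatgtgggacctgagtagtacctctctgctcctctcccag
Duoxa2: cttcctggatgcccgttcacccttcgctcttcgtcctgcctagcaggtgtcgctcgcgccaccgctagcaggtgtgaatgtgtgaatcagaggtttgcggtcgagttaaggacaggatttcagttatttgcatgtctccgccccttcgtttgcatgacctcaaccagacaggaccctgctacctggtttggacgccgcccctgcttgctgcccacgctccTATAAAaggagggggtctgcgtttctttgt

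The TATAAA of Duoxa2 lies from base -30 to base -25 before the start site. These letters, searched on both strands after the windows had been seen, were in 12.4% of all 32851 promoter windows of this length and in 1 of the 8 members that the table holds. Nos2 has no window there. The letters TTCNNNGAA (a STAT motif), ACGTG (a hypoxia response core) and the core of the interferon-stimulated response element were in none of the 8 windows, against 7.02%, 16.6% and 2.98% of all windows. The NF-kB core, 3 G, any 5 bases and 2 C on either strand, was in 5 of the 8 (Duox1, Nox1, Noxo1, Noxa1 and Cyba) and in 45.8% of all windows. The windows of Duox2, Duox1 and Nox1 lie within the longest model of their own gene, and the Duox2 model ends 160 bases from the start of Duoxa2. The other members are Nos2 on chromosome 11 (78920787 to 78960226), Nox1 on chromosome X (134086421 to 134137711), Noxo1 on chromosome 17 (24696234 to 24700530), Noxa1 on chromosome 2 (25085667 to 25095205) and Cyba on chromosome 8 (122424771 to 122432940).

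Values are log2 intensities, in which a difference of 1 is a doubling, and they are compared between arrays for 1 gene, never between genes. Tests are limma's moderated test with a mean for each group, adjusted by Benjamini-Hochberg over the 19938 genes, and a gene is called at an adjusted p under 0.05. Differences are given with the standard error of the fit, and SIgA differences are without minus with. The targeted gene Pigr differed between Pigr-/- and Pigr+/- offspring by -0.74 ± 0.07 in untreated mice (adjusted p = 2.86e-04) and by -0.96 ± 0.07 after DSS (adjusted p = 1.47e-04). The 10 epithelial markers averaged 12.36 to 12.46 on the untreated arrays and 12.33 to 12.46 on the DSS arrays. Both untreated arrays with passive and active SIgA and replicate 1 of the untreated arrays with active SIgA only stood apart: their best correlations with an array of another group were 0.986, 0.981 and 0.989, against 0.994 to 0.997 for the other arrays. Results are therefore also given without the first pair and without all 3. Fewer of all genes were called for DSS on average in both settings, so counts of calls there have a lower background than in the main fit. Leaving out the pair removes a whole group: DSS averages are then over the other 3 SIgA groups, comparisons of active SIgA and their interactions over offspring of Pigr-/- dams alone, and those of passive SIgA over Pigr-/- offspring alone.

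Nos2 was higher on every DSS array than on any untreated one, 4.85-fold on average, and from 3.86-fold to 6.01-fold in the 4 SIgA groups. Of the 9 genes, 5 were called higher after DSS (Nos2, Duox2, Duoxa2, Noxo1 and Cyba) and none lower, where 6.4% of all genes tested were called higher and 13.1% in either direction. Those 5 were also the members whose 8 DSS arrays all lay above their 8 untreated arrays, which 1.58% of all genes did. Duox1, Duoxa1, Nox1 and Noxa1 were not called.

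**Figure D1:**
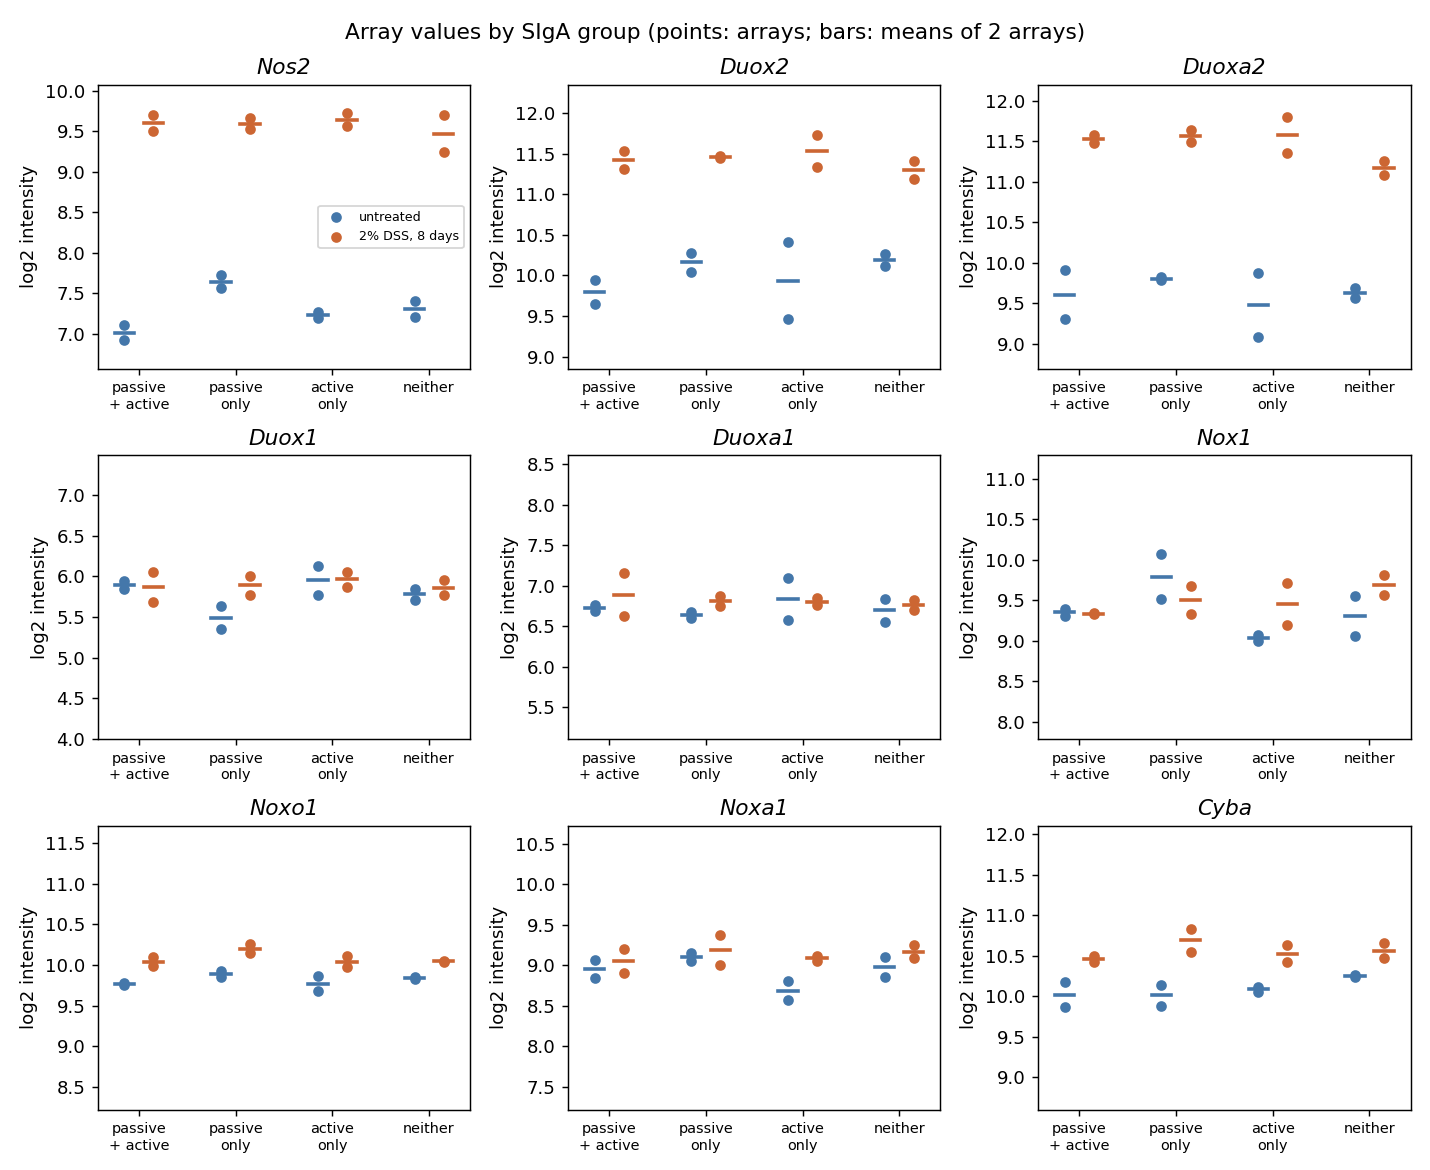
Log2 intensity (y axis) of each of the 9 genes in the 4 SIgA groups (x axis), with untreated arrays in blue and DSS arrays in orange; points are arrays and bars are means of 2, and each panel spans the same number of log2 units. The DSS points stand clear of all untreated points for Nos2, Duox2 and Duoxa2, lie just above them for Noxo1 and Cyba, and mix with them for Duox1, Duoxa1, Nox1 and Noxa1.

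Untreated Nos2 measured 7.11 and 6.92 with both forms of SIgA, 7.72 and 7.56 with passive SIgA only, 7.19 and 7.26 with active SIgA only, and 7.41 and 7.21 with neither. The DSS pools of those groups measured 9.70 and 9.51, 9.66 and 9.53, 9.56 and 9.72, and 9.70 and 9.24. The lowest DSS array was thus 1.52 above the highest untreated array, and the untreated arrays were more spread than the DSS arrays, apart from 1 low DSS array with neither form of SIgA. Averaged over the 4 SIgA groups, the DSS difference of Nos2 was 2.28 ± 0.08 (95% interval 2.11 to 2.44, adjusted p = 4.04e-09), with the smallest p of all 19938 genes. It was 2.17 ± 0.09 without both untreated arrays with passive and active SIgA and 2.16 ± 0.10 without all 3 arrays that stood apart, where its p ranked 2.

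Duox2 and Duoxa2 rose together. Duox2, which releases hydrogen peroxide at the apical surface, measured 9.65 and 9.94 with passive and active SIgA, 10.28 and 10.04 with passive only, 9.47 and 10.41 with active only, and 10.27 and 10.12 with neither in untreated mice. After DSS it measured 11.31 and 11.54, 11.45 and 11.47, 11.34 and 11.73, and 11.42 and 11.19 in the same order. The untreated values ranged over nearly 1 log2 unit, mostly between the 2 pools with active SIgA only, and all DSS values lay above them by 0.79 or more. The average DSS difference of Duox2 was 1.41 ± 0.12, which is 2.66-fold (adjusted p = 6.69e-06), and 1.18 ± 0.10 without the 3 arrays that stood apart.

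Duoxa2, without which Duox2 does not reach the membrane, measured 9.30 and 9.92 with passive and active SIgA, 9.82 and 9.78 with passive only, 9.09 and 9.88 with active only, and 9.68 and 9.57 with neither in untreated mice. After DSS it measured 11.48 and 11.57, 11.64 and 11.49, 11.35 and 11.80, and 11.26 and 11.08. Its lowest DSS values were both pools with neither form of SIgA, still 1.17 above the highest untreated array. The average DSS difference of Duoxa2 was 1.83 ± 0.12, or 3.55-fold (adjusted p = 6.89e-07), and 1.67 ± 0.09 without the 3 arrays that stood apart.

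The other dual oxidase pair of the locus did not pass the test. Duox1, whose product is best known from airway and thyroid, measured 5.94 and 5.84, 5.35 and 5.63, 6.13 and 5.77, and 5.71 and 5.84 in untreated mice, with the groups in the order used for Duox2. After DSS it measured 6.05 and 5.68, 6.01 and 5.77, 5.87 and 6.06, and 5.77 and 5.96. Treated and untreated arrays overlapped over most of their range, and the average DSS difference of Duox1 was 0.12 ± 0.08 (95% interval -0.06 to 0.30, adjusted p = 0.419). Its probe set was among the dimmest 30% of genes, the only member there.

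Duoxa1, the maturation factor of Duox1, ran from 6.56 over a median of 6.68 to 7.10 on the 8 untreated arrays and from 6.63 over 6.79 to 7.16 on the 8 DSS arrays. These ranges nearly coincide, and its DSS difference was 0.09 ± 0.09 (95% interval -0.11 to 0.29, adjusted p = 0.601). The intervals of Duox1 and Duoxa1 end far below the differences of Duox2 and Duoxa2, whose own intervals begin at 1.15 and 1.57.

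Because DSS separates the arrays into 2 clusters for Duox2 and Duoxa2, the relation within each pair was taken within each treatment, over 8 arrays of 4 groups. Among DSS arrays, Duox2 and Duoxa2 had a Pearson r of 0.86 (exact permutation p = 0.00771, adjusted over 4 relations 0.0292) and a Spearman rho of 0.833 (exact p = 0.0154, adjusted 0.0615), and r was 0.472 without the 2 arrays farthest from the median of Duox2. Among untreated arrays r was 0.827 (exact p = 0.0146, adjusted 0.0292) and rho 0.571 (exact p = 0.151), and r without the 2 farthest arrays was -0.02, so that this relation rests on those arrays, both of which are among the 3 that stood apart. For Duox1 and Duoxa1, r was 0.676 among DSS arrays (exact p = 0.0432, adjusted 0.0575) and 0.559 among untreated arrays (exact p = 0.162), neither past the threshold after adjustment. All these tests were two-sided. The permutations treat the 8 arrays as exchangeable, although they are 2 pools from each of 4 groups. Differences between groups or between whole arrays can therefore enter these correlations and their p-values.

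**Figure D2:**
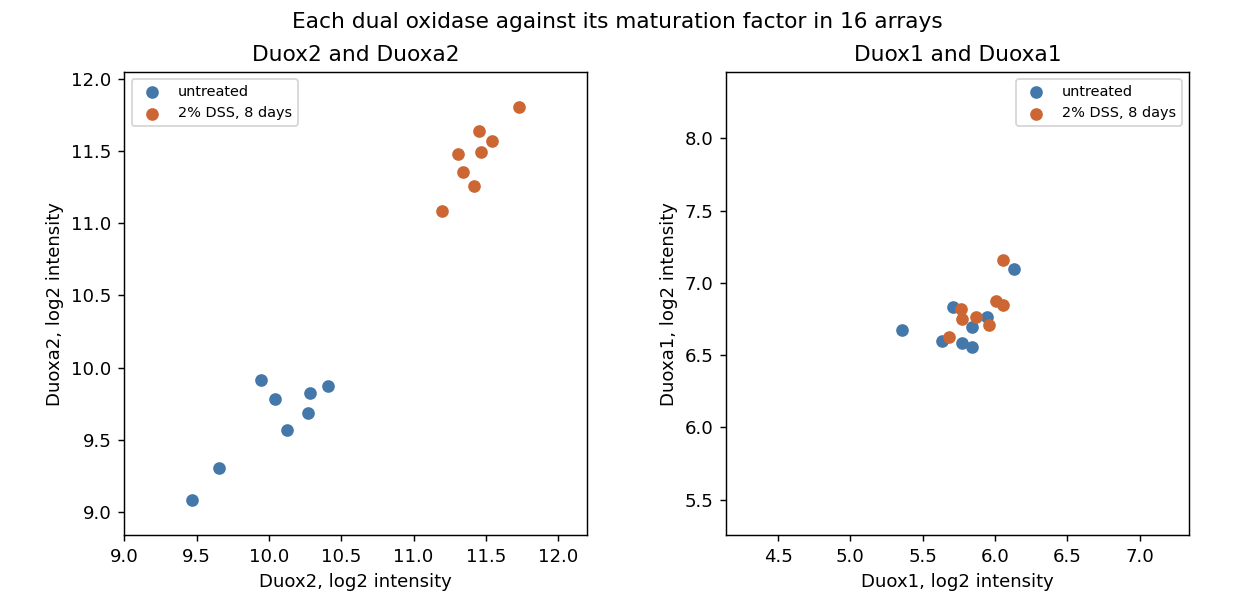
Each dual oxidase (x axis, log2 intensity) against its maturation factor (y axis, log2 intensity) on the 16 arrays, with untreated arrays in blue and DSS arrays in orange and the same span in both panels. Duox2 and Duoxa2 form 2 separate clouds by treatment, while Duox1 and Duoxa1 form 1 cloud in which both treatments mix.

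Within the Nox1 complex, the 2 subunits that were called changed by small amounts. Nox1, the catalytic subunit, measured 9.39 and 9.31 with passive and active SIgA, 10.08 and 9.51 with passive only, 9.08 and 8.997 with active only, and 9.06 and 9.55 with neither in untreated mice. After DSS it measured 9.34 and 9.33, 9.68 and 9.33, 9.71 and 9.19, and 9.81 and 9.57. The highest of all 16 values was an untreated array with passive SIgA only, and the groups overlapped. The average DSS difference of Nox1 was 0.12 ± 0.11 (95% interval -0.11 to 0.36, adjusted p = 0.542).

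Noxo1, the organiser that lets Nox1 work without a separate trigger, lay between 9.67 and 9.93 on the untreated arrays, with a median of 9.84, and between 9.97 and 10.26 on the DSS arrays, with a median of 10.07. The 2 ranges were 0.04 apart. The average DSS difference of Noxo1 was 0.27 ± 0.05, or 1.20-fold (adjusted p = 0.0046), and 0.23 ± 0.07 without the 3 arrays that stood apart, where it was no longer called (adjusted p = 0.0646). Noxa1, the activator, ran from 8.57 over 8.96 to 9.15 untreated and from 8.90 over 9.10 to 9.37 after DSS, with 3 of the 8 DSS arrays above the highest untreated one. The DSS difference of Noxa1 was 0.19 ± 0.08 (95% interval 0.02 to 0.36), with an unadjusted p of 0.0299 and an adjusted p of 0.137.

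Cyba, which codes for p22phox, the membrane partner shared by Nox1 and by the phagocyte oxidase, measured 9.87 and 10.18 with passive and active SIgA, 9.88 and 10.14 with passive only, 10.11 and 10.06 with active only, and 10.24 and 10.26 with neither in untreated mice. After DSS it measured 10.43 and 10.50, 10.55 and 10.83, 10.63 and 10.42, and 10.65 and 10.47. Every DSS array lay above every untreated one, by at least 0.16. The average DSS difference of Cyba was 0.47 ± 0.07, or 1.38-fold (adjusted p = 7.54e-04), and 0.49 ± 0.09 without the 3 arrays that stood apart.

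Markers of phagocytes rose with DSS as the 5 called genes did, and phagocytes also express some of the 5, such as Cyba. Expression by cell type was not measured. Of 16 neutrophil markers 11 were called higher after DSS and none lower, where 6.4% of all genes were called higher. Their median was 0.60, against -0.00438 for all genes. The called markers included Retnlg at 1.54 ± 0.10, Cxcr2 at 1.32 ± 0.12, S100a8 at 1.11 ± 0.09 and Hdc at 1.03 ± 0.08. The mean of the list was 5.90 to 6.31 on the untreated arrays and 6.58 to 7.12 on the DSS arrays, without overlap. Of 16 measured monocyte and macrophage markers 9 were called higher and none lower (median 0.37), among them Cd14 at 0.99 ± 0.08, Fcer1g at 0.99 ± 0.09, Tyrobp at 0.98 ± 0.11 and Itgam at 0.59 ± 0.06, and the list mean was 5.94 to 6.36 untreated and 6.42 to 6.61 after DSS. The 5 neutrophil markers that were not called, named after their values were seen, were the granule genes Elane (-0.00185), Mpo (0.05), Camp (0.02), Ngp (0.05) and Mmp8 (0.36), while the granule genes Ltf (0.42, adjusted p = 0.00134) and Mmp9 (0.50, adjusted p = 0.00363) were called higher. Without both untreated arrays with passive and active SIgA the counts were 11 neutrophil and 8 monocyte and macrophage markers. In that setting 1210 of all 19938 genes were called in either direction, against 2618 with all arrays.

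On the DSS arrays the neutrophil mean was 6.73 and 6.73 with both forms of SIgA and 7.12 and 6.74 with passive only. It was 6.81 and 6.58 with active only, and 6.65 and 6.61 with neither. Nos2 on the same arrays, in the same order, measured 9.70 and 9.51, 9.66 and 9.53, 9.56 and 9.72, and 9.70 and 9.24. The relation between Nos2 and this mean was not tested. Of the 10 epithelial markers only Krt18 was called (-0.20 ± 0.06, adjusted p = 0.0444, and not called without the 3 arrays, adjusted p = 0.341). Fibroblast markers were called higher in 3 of 8 (Fbln1, Vim and Dcn), B cell markers lower in 1 of 6 (Igha, -0.61 ± 0.14, and -0.11 without the 3 arrays, adjusted p = 0.812), and T cell (7), endothelial (7) and smooth muscle (6) markers in none. In bulk RNA, fewer or more cells of a type and less or more RNA per cell cannot be told apart, and the part of these cells in the differences of Nos2, Duox2, Duoxa2, Noxo1 and Cyba was not tested.

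Within each SIgA group, where 2 DSS arrays were set against 2 untreated ones, Nos2, Duox2 and Duoxa2 were each called higher in all 4 groups, which 54 genes, 0.271% of those tested, were. The rise of Nos2 was 2.59 with both forms of SIgA, 1.95 with passive only, 2.41 with active only and 2.16 with neither (standard error 0.15 each, adjusted p from 1.70e-06 to 5.90e-05). Duox2 rose by 1.63, 1.30, 1.598 and 1.11 in the same order (standard error 0.24, adjusted p = 8.51e-04, 0.0125, 0.00606 and 0.0457). Duoxa2 rose by 1.92, 1.76, 2.09 and 1.54 (standard error 0.24, adjusted p = 2.43e-04, 0.00167, 8.21e-04 and 0.00665). The values with passive and active SIgA rest on the 2 untreated arrays that stood apart and have no counterpart without them. The smallest difference was with passive SIgA only for Nos2 and with neither for Duox2 and Duoxa2. These orders were not tested, and without 1 DSS array with neither form Nos2 also had its smallest difference there (1.93).

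The calls for the Duox2 pair were less firm within single groups. Without both untreated arrays with passive and active SIgA, the Duox2 difference with neither form stayed at 1.11 and its adjusted p was 0.0651, it was between 0.0525 and 0.0696 with any 1 of 8 arrays of other groups out, and with any 1 of its own 4 arrays out it lay between 0.188 and 0.318. With passive SIgA only, Duox2 was not called without any 1 of its own 4 arrays (adjusted p 0.0654 to 0.138). With active SIgA only it was not called without DSS replicate 2 (adjusted p = 0.071), and Duoxa2 with neither was not called without untreated replicate 2 (adjusted p = 0.0823) or DSS replicate 1 (adjusted p = 0.0911). The Nos2 calls held in each of these settings.

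Cyba was called with passive SIgA only (0.68 ± 0.14, adjusted p = 0.0277) and not without any 1 of that group's 4 arrays (adjusted p 0.0541 to 0.252). In the other groups its difference was 0.44 with passive and active SIgA (adjusted p = 0.0712), 0.44 with active only and 0.31 with neither. The differences of Noxo1 were 0.28, 0.31, 0.27 and 0.21 (standard error 0.11), none of them called. In all, 3 of the 9 genes were called higher with passive and active SIgA, 4 with passive only, 3 with active only and 3 with neither, against 3.56%, 0.893%, 0.622% and 0.492% of all genes. The difference was above 0 in all 4 groups for 6 of the 9 (the called 5 and Noxa1), as it was for 13% of all genes, and Noxa1 fell below 0 with passive and active SIgA when arrays were centred on their median (-0.01). Nox1 was at -0.02 and -0.29 in the 2 groups with passive SIgA and at 0.41 and 0.39 in the 2 without it (standard error 0.22, none called).

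**Figure D3:**
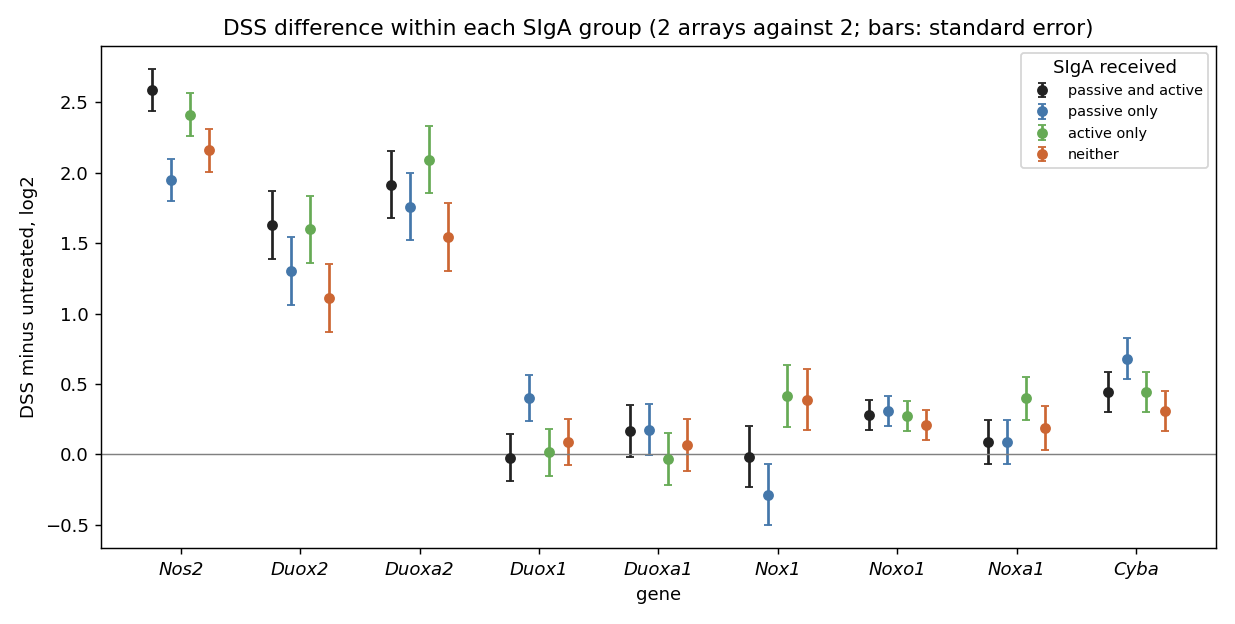
DSS minus untreated difference (y axis, log2) of the 9 genes (x axis) within each SIgA group, 2 arrays against 2, with the standard error as bars. Nos2 lies between 1.95 and 2.59, Duoxa2 between 1.54 and 2.09 and Duox2 between 1.11 and 1.63, with Nox1 on both sides of 0.

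No member was called for passive or active SIgA, or for an interaction of either with DSS. In untreated mice, the lack of passive SIgA left 0 of 9 called by limma, with 1 at an unadjusted p under 0.05, against 2.58% of all genes called. That 1 was Nox1, at -0.40 ± 0.15 (95% interval -0.73 to -0.07, adjusted p = 0.176), and the other members lay between -0.19 ± 0.11 for Noxa1 and 0.17 ± 0.12 for Duox1. After DSS, the lack of passive SIgA again left 0 of 9 called and none at an unadjusted p under 0.05, from -0.17 ± 0.17 for Duoxa2 to 0.15 ± 0.15 for Nox1, where 0% of all genes were called. The passive interaction with DSS was 0.55 ± 0.22 for Nox1 (95% interval 0.08 to 1.02, adjusted p = 0.519), the 1 member at an unadjusted p under 0.05, and 0 of 9 were called against 0.115% of all genes. Within Pigr-/- offspring alone, which holds none of the 3 arrays that stood apart, it was 0.68 ± 0.33 for Nox1.

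For active SIgA in untreated mice, 0 of 9 were called by limma, with 3 at an unadjusted p under 0.05, against 7.49% of all genes called. These were Nos2, 0.36 ± 0.11 higher without active SIgA (95% interval 0.12 to 0.59, adjusted p = 0.0619), Nox1, 0.35 ± 0.15 (adjusted p = 0.157), and Duox1, -0.29 ± 0.12 (adjusted p = 0.136). In offspring of Pigr-/- dams alone, which the pair of arrays that stood apart does not enter, the Nos2 difference was 0.08 ± 0.15 (adjusted p = 0.793), and 0.05 ± 0.19 without the third array. Those arrays and the group with passive SIgA only leave this comparison together, so that their parts cannot be told apart. That of Duox1 was -0.17 ± 0.17 and 0.01 ± 0.19 in the same comparisons, and that of Nox1 0.27 ± 0.23 and 0.31 ± 0.28. Other settings went the other way. With all arrays, Nos2 was called with a trend in the prior variance (adjusted p = 0.0476) and with the replicate number as a block (adjusted p = 0.032). It stayed at 0.36 without either DSS array with neither form. Without untreated replicate 2 of active SIgA only, Nos2 was at 0.37 and Duox1 at -0.38. The untreated side with active SIgA then consists only of the 3 arrays that stood apart, so that setting cannot be set against those without them.

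After DSS, the lack of active SIgA left 0 of 9 called and none at an unadjusted p under 0.05, from -0.18 ± 0.17 for Duoxa2 to 0.21 ± 0.15 for Nox1, against 0.00502% of all genes. For Nos2 that difference was -0.09 ± 0.11, with a 95% interval of -0.32 to 0.14. The active interaction with DSS was -0.45 ± 0.15 for Nos2 (95% interval -0.77 to -0.12, adjusted p = 0.24), the 1 member at an unadjusted p under 0.05, and -0.25 ± 0.22 in offspring of Pigr-/- dams alone, or -0.22 ± 0.25 there without the third array that stood apart. It was -0.41 ± 0.24 for Duox2, -0.35 ± 0.24 for Duoxa2 and 0.25 ± 0.16 for Duox1, and 0 of 9 were called against 0.843% of all genes. In that last comparison the Duox2 interaction was -0.02 ± 0.24 and that of Duox1 -0.11 ± 0.25. The three-way term ran from -0.40 ± 0.48 for Duoxa2 to 0.39 ± 0.30 for Nos2, with 0 of 9 called and none at an unadjusted p under 0.05, against 0.0602% of all genes.

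Set in order, untreated Nos2 was highest with passive SIgA only (7.64 ± 0.11, SD, n = 2), then with neither (7.31 ± 0.14), active only (7.23 ± 0.05) and both forms (7.01 ± 0.13). The arrays with neither and with active SIgA only overlapped, and the other neighbours in that order did not. After DSS the order for Nos2 was active only (9.64 ± 0.11), both (9.60 ± 0.14), passive only (9.59 ± 0.10) and neither (9.47 ± 0.32), and all neighbours overlapped. For Duox2 all neighbours overlapped in both treatments. For Duoxa2 after DSS, both arrays with neither form (11.17 ± 0.12) lay below the lowest array of the next group, both forms (11.52 ± 0.07), while the first 3 groups overlapped. Untreated Nox1 with passive SIgA only (9.79 ± 0.40) lay above the next group by mean, both forms (9.35 ± 0.05), but overlapped the group with neither, and after DSS all Nox1 neighbours overlapped. Noxo1 was highest with passive SIgA only in both treatments, at 9.89 ± 0.05 and 10.20 ± 0.08, above the group next by mean in both, but untreated it overlapped the group with active SIgA only.

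By Pearson correlation over the 16 arrays, given as a description since most of these genes share the split by treatment, the genes most like Nos2 were Clca4b (0.979), Ms4a12 (0.979) and Tifa (0.975). Those most like Duox2 were Duoxa2 (0.983), B3galt5 (0.973) and Tifa (0.971), and those most like Duoxa2 were Duox2 (0.983), the neutrophil chemokine Cxcl2 (0.983) and Mfsd2a (0.975). Duoxa2 was thus first of all genes for Duox2 and the reverse, and Nos2 correlated with them at 0.968 and 0.96. With the mean of each treatment taken off, Duox2 still ranked 2 of all genes for Duoxa2 (0.821), but Duoxa2 was not among the first 3 for Duox2, which were Myl12a (0.905), Ppp2r2d (0.898) and Tmem243 (0.892). The correlation of Nos2 was then 0.376 with Duoxa2 and 0.493 with Duox2. Noxo1 was most like Fzd1 (0.928), Mtap (0.925) and Pla2g2a (0.925), and Cyba most like Plek2 (0.924), Ppp1r14b (0.908) and Atp8a1 (0.906). The best values were lower for Nox1, led by Nedd4 (0.79), Aldh3a2 (0.788) and Ncapd3 (0.786). Noxa1 was led by Cyp2j6 (0.951), Duox1 by 4933440M02Rik (0.898) and Duoxa1 by Crybb1 and Dkk1 (both 0.927).

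Among the genes of the related lists below, the phagocyte oxidase subunit Cybb and the peroxidase Ptgs2 rose more than 2-fold. Of all genes tested, 6.4% were called higher after DSS and 13.1% in either direction. Of 8 measured genes of other NADPH oxidases, 4 were called higher after DSS and none lower (median 0.19). Cybb, the catalytic subunit of the phagocyte oxidase and also a partner of Cyba, was at 1.12 ± 0.11 (2.17-fold, adjusted p = 2.52e-05). The cytosolic subunit Ncf1 of that oxidase was at 0.42 ± 0.07 (adjusted p = 8.82e-04), the GTPase Rac2 at 0.36 ± 0.07 (adjusted p = 0.00309) and Ncf4 at 0.24 ± 0.06 (adjusted p = 0.0246). Ncf4 was not called without both untreated arrays with passive and active SIgA (0.15, adjusted p = 0.354). Cybb, like the phagocyte markers, was higher after DSS, and the part of phagocytes in it was not tested.

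**Figure D4:**
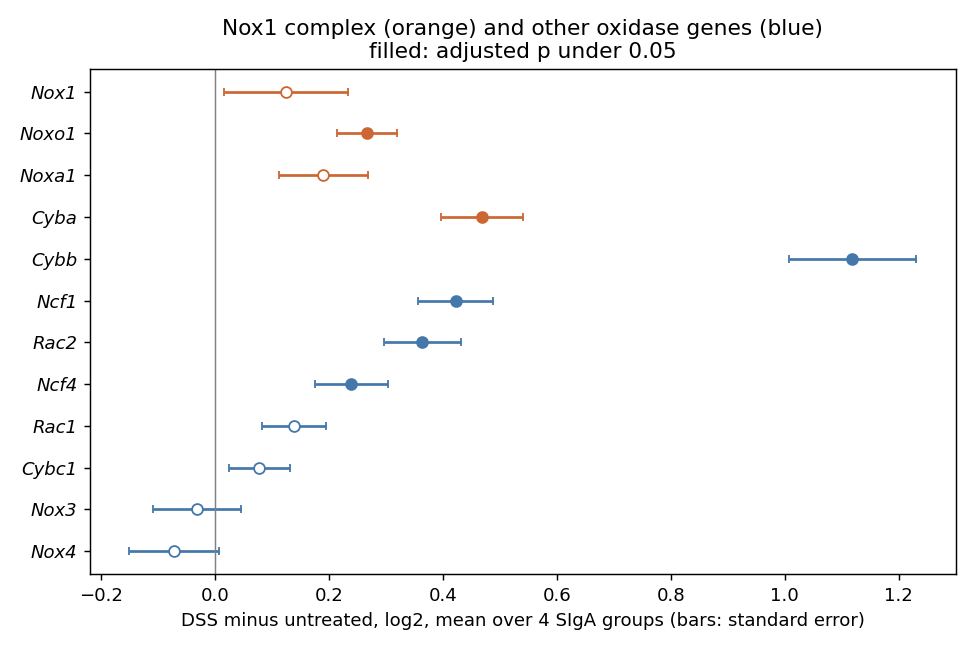
DSS minus untreated difference averaged over the 4 SIgA groups (x axis, log2, bars are standard errors) of the 4 genes of the Nox1 complex in orange and of 8 other oxidase genes in blue, with filled points at an adjusted p under 0.05. Cybb stands farthest out at 1.12, Cyba lies at 0.47 beside Ncf1 at 0.42, and Nox1 lies at 0.12 with an open point.

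The list of genes that supply nitric oxide synthase with substrate and cofactor or limit it also held the synthases Nos1 and Nos3. Of its 16 measured genes, 4 were called higher and 1 lower (median 0.07). Nos1 (0.07, adjusted p = 0.749) and Nos3 (0.07, adjusted p = 0.781) were not called. The share called higher over all genes was 6.4%. Ddah1, which degrades an endogenous inhibitor of nitric oxide synthases, rose by 0.99 ± 0.07 (1.98-fold, adjusted p = 1.11e-06). Arg2, an arginase that competes for arginine, rose by 0.49 ± 0.10 (adjusted p = 0.00519), Gch1, which starts synthesis of the cofactor tetrahydrobiopterin, by 0.46 ± 0.09 (adjusted p = 0.0053) and the amino acid carrier subunit Slc7a7 by 0.36 ± 0.07 (adjusted p = 0.0056). Qdpr, which recycles that cofactor, fell by 0.28 ± 0.06 (adjusted p = 0.00878). Without the 3 arrays that stood apart Arg2 (adjusted p = 0.0608) and Gch1 (adjusted p = 0.0655) were not called, which left Ddah1 and Slc7a7 higher (adjusted p = 4.51e-05 and 0.0497).

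Of 26 measured antioxidant genes, among them those that remove superoxide and peroxide, 5 were called higher and none lower (median 0.06). The share of all genes called higher was 6.4%. The epithelial glutathione peroxidase Gpx2 rose by 0.65 ± 0.06 (1.57-fold, adjusted p = 1.87e-05), Gpx3 by 0.59 ± 0.10 (adjusted p = 0.00197), the heme oxygenase Hmox1 by 0.50 ± 0.10 (adjusted p = 0.00647), the thioredoxin reductase Txnrd1 by 0.36 ± 0.05 (adjusted p = 4.87e-04) and the glutathione reductase Gsr by 0.22 ± 0.05 (adjusted p = 0.0152). Only Gpx2 and Txnrd1 remained called without both untreated arrays with passive and active SIgA, where Gpx3 was at 0.43 (adjusted p = 0.0598) and Hmox1 at 0.41 (adjusted p = 0.0543). In that setting 1210 of all 19938 genes were called in either direction. Of 5 measured heme peroxidases the prostaglandin synthase Ptgs2 alone was called (1.53 ± 0.16, 2.89-fold, adjusted p = 2.85e-05), and the lactoperoxidase Lpo, an enzyme that uses hydrogen peroxide, was at 0.32 ± 0.12 (adjusted p = 0.109).

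Of 19 measured receptors and factors known to act upstream of Nos2 and Duox2, 4 were called higher and 1 lower (median 0.12). Over all genes, 6.4% were called higher. The NF-kB cofactor Nfkbiz rose by 0.36 ± 0.06 (adjusted p = 0.00208), Myd88, the adaptor of Toll-like receptors, by 0.31 ± 0.06 (adjusted p = 0.00409), Stat3 by 0.31 ± 0.05 (adjusted p = 0.00209) and Cebpb by 0.19 ± 0.06 (adjusted p = 0.0411), while the interleukin-17 receptor subunit Il17rc fell by 0.26 ± 0.05 (adjusted p = 0.0062). Without the 3 arrays 2 were called higher, with Nfkbiz at 0.25 (adjusted p = 0.0994), and Il17rc was not called lower (-0.25, adjusted p = 0.0634).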

How the data were processed

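The authors deposited the log2 intensities of Affymetrix whole-transcript arrays, summarised with RMA per the submitters' processing notes; the version and the genome build of their annotation are not given in the sources used here. Per the labels, the 2 replicates of a group are pools of different mice, with no batch or date named; p-values reflect differences among pools, not single mice. Of 35557 probe sets, the platform's annotation gave 1 gene for 21789, which were used, several for 1621 and none for 12147, with the brightest for the 999 genes that had more than 1, which left 19938 genes. The number of arrays limits the precision.

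Group means were fitted with limma 3.58.1 in R 4.3.3 (8 residual and 5.03 prior degrees of freedom, two-sided) and adjusted by Benjamini-Hochberg, and the fit was tested on simulated data. Sequences and coordinates came from RefSeq tables on GRCm38.p6, and 8 members had a promoter window. The named genes were the 9 members, up to 4 genes of each list by p, the 3 genes most like each member and Pigr. Qdpr, Gsr and Cebpb were added to complete counts, and Nos1 and Nos3 to describe their list. The members, gene lists, motifs and alternatives were chosen with earlier results of these data known. Alternatives were a trend in the prior variance, arrays centred on their median, quantile normalization, all probe sets, a replicate block, dropping the dimmest 30% of genes, leaving out each array, and leaving out 2 or 3 arrays that stood apart.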

Additional observations from a re-analysis of the deposited data

How the results depend on the processing

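The 5 members called for DSS on average (Nos2, Duox2, Duoxa2, Noxo1 and Cyba) were the same 5 in every alternative except without all 3 arrays that stood apart, where Noxo1 was lost. The count of all genes called for DSS on average, 2618 in the main fit, was 1210 without both untreated arrays with passive and active SIgA, 1107 without all 3, and 1951 to 3290 with 1 array left out. Leaving out 1 array gave 2 to 4 members called with passive SIgA only (4 with all arrays), 1 to 3 with neither (3) and 0 to 3 for active SIgA in untreated mice (0), where the trend and the replicate block each gave 1, Nos2. Duox2 with neither was not called in 15 alternatives, among them arrays centred on their median (adjusted p = 0.079) and all probe sets (adjusted p = 0.0512), nor was Cyba with passive SIgA only with arrays centred (adjusted p = 0.0704), while Cyba with passive and active SIgA was called with the trend (adjusted p = 0.0408).

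Signs were followed through the alternatives for only some comparisons of each member. Among those followed, some signs changed, all of them for Duox1, Duoxa1, Nox1 and Noxa1. Differences near 0 in the other comparisons may change sign as well. With quantile normalization Duox1 was at 0.0392 and Noxa1 at -0.0277 with passive and active SIgA, and Duoxa1 at 0.0319 with active SIgA only; with arrays centred Noxa1 was at -0.0102 and Duoxa1 at 0.0279 in the same groups. Without the 3 arrays Duoxa1 with active SIgA only was at 0.22, Duox1 for active SIgA in untreated mice at 0.00723, from -0.29 with all arrays, and its interaction with DSS at -0.11, from 0.25; both then compare only offspring of Pigr-/- dams. With 1 array left out, the DSS differences with passive and active SIgA ran from -0.21 to 0.16 for Duox1, -0.10 to 0.43 for Duoxa1, -0.056 to 0.0211 for Nox1 and -0.0604 to 0.24 for Noxa1. With passive SIgA only, Noxa1 ran from -0.0948 to 0.27. With active SIgA only, Duox1 ran from -0.17 to 0.19 and Duoxa1 from -0.29 to 0.22, and with neither from -0.0122 to 0.18 and -0.073 to 0.21. The cause of these changes was not tested.

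The replicate numbers were not shown to pair the pools. Deviations of replicate 1 from the group means correlated from -0.301 to 0.666 between groups, above 0.1 in 14 of 28 pairs. Of 16 arrays, 12 correlated best with an array of their own number. The 2 deviations of a group mirror each other, so both of its arrays give the same result and the 16 are not independent. With the replicate block, 3032 genes were called for DSS on average, and 5 members. Without 2 or 3 arrays, DSS with passive and active SIgA and the three-way term gave no value, Duox1 left the test without the dimmest 30% of genes, and a group reduced to 1 array was given the spread of the other groups.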
